A study of Mus musculus with 4 samples.

Results

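The 35 genes described here encode the nuclear pore complex (27 nucleoporins) and the nuclear lamina and inner nuclear membrane (8 envelope proteins), structures that are taken apart when a mammalian cell enters mitosis. They were chosen by name. A gene's probes were those whose accession in the scanner files matched its symbol in a RefSeq table, and the brightest probe stood for the gene. All 35 genes were found, and all 35 were well above background on all 4 arrays, among 17962 features compared in all.

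The study set parthenogenetic haploid mouse embryonic stem cells (ESCs) against diploid ones of the same kind, and its title concerns the G2 to M step of the cell cycle. The haploid group held 1 array each of line 1 and line 2, and the diploid group likewise held 1 array each of its own line 1 and line 2. All 4 samples were labelled female and came from unfertilised eggs, so both groups carry a maternal genome only. Whether a haploid line shares an origin with the diploid line of the same number, or how many cells of the haploid cultures had become diploid when RNA was taken, is information that the labels do not hold.

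The pore is a ring-shaped channel through the nuclear envelope. A scaffold of outer (Y complex) and inner rings is anchored by membrane nucleoporins, and it carries nucleoporins rich in phenylalanine-glycine repeats, which let transport receptors pass. Inside the envelope lies a mesh of lamins, tied to the membrane and to chromatin by the lamin B receptor and by LEM-domain proteins that bind the small chromatin protein BAF. At mitotic entry, kinases that include CDK1 phosphorylate nucleoporins and lamins, and the parts disperse until the envelope forms again around the daughter chromosomes.

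Levels are given as log2 of the processed signal over the array's 75th percentile, and differences as haploid minus diploid on that log2 scale. The 75th percentile was 526 and 553 intensity units on the haploid arrays, against 617 and 907 on the diploid arrays, and from 53.6% to 65.0% of probes were well above background. All 10 ESC markers, Pou5f1, Sox2 and Nanog among them, were well above background on all 4 arrays. Their differences ran from -0.51 (Tdgf1) to 0.35 (Dppa5a), 6 above and 4 below 0, with a median of 0.05. Nanog differed by -0.37. Markers of other cells were uneven between the groups too. For 15 fibroblast markers the level summed over probes, in multiples of the 75th percentile, was 60.0 and 57.3 on the haploid arrays and 46.6 and 40.8 on the diploid arrays, with none at background on every array. Of the 14 measured ones 11 lay above 0, and the median difference was 0.76. The largest differences were those of S100a4 (2.27), Ccl2 (1.59) and Thbs1 (1.39). Fn1 and Vim, the brightest of these markers, differed by 0.27 and 0.45, while Col3a1, Dcn and Lum lay below 0. For 9 trophectoderm markers the summed level was 18.01 and 14.8 against 13.1 and 13.8, with Elf5 not above background on any array. The 6 measured ones had a median difference of 0.71. Krt18 was at 1.23, Krt8 at 1.149 and Gata3 at 1.02, but Eomes at -0.43 and Tfap2c at -0.14. Krt7, at 0.40, was kept only because both haploid arrays were well above background. For 8 primitive endoderm markers the summed level was 3.23 and 3.24 against 2.84 and 2.58, with Foxa2 and Dab2 not above background on any array. The 4 measured ones had a median difference of -0.36, of the opposite sign to the sum. Gata6 was at -0.96, Gata4 at -0.77, Col4a1 at 0.06 and Lama1 at 0.31. Gata6 and Gata4 were kept only because both diploid arrays were well above background, which favours a sign below 0. The part of these cells in the results on pore and envelope genes was not tested. In such bulk samples fewer cells of a type and less RNA per cell cannot be told apart, and scaling to the 75th percentile hides a change shared by all genes.

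None of the 35 genes passed the test (limma with Benjamini-Hochberg adjustment over all 17962 features, threshold 0.05), where 0.111% of all features did. The smallest adjusted p among them was 0.421. Nup210 alone had an unadjusted p under 0.05, that is 1 of 35 genes, where 11.7% of all features did. The differences ran from -0.41 for Lemd3 to 0.41 for Nup210, 18 above and 17 below 0, with a median of 0.0049 beside 0.02 for all features. The split depended on the processing. It was 11 above and 24 below with quantile normalization, with cyclic loess and with the authors' value table. With the array median as scale it was 21 above and 14 below. Normexp background correction gave 29 above and 6 below on all spots. Without 2 spots of high local background on diploid replicate 2 it gave 14 above and 21 below.

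For all 35 genes the 95% interval of the difference lay inside a 2-fold change in either direction, as it did for 82.4% of all features. The lowest bound was -0.95, for Nup214, and the highest was 0.82, for Emd. Among features that were well above background on all 4 arrays, as these genes were, the share inside 2-fold was 88.5% in a fit of their own. Each interval stands for 1 gene and is not adjusted for their number.

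**Figure D1:**
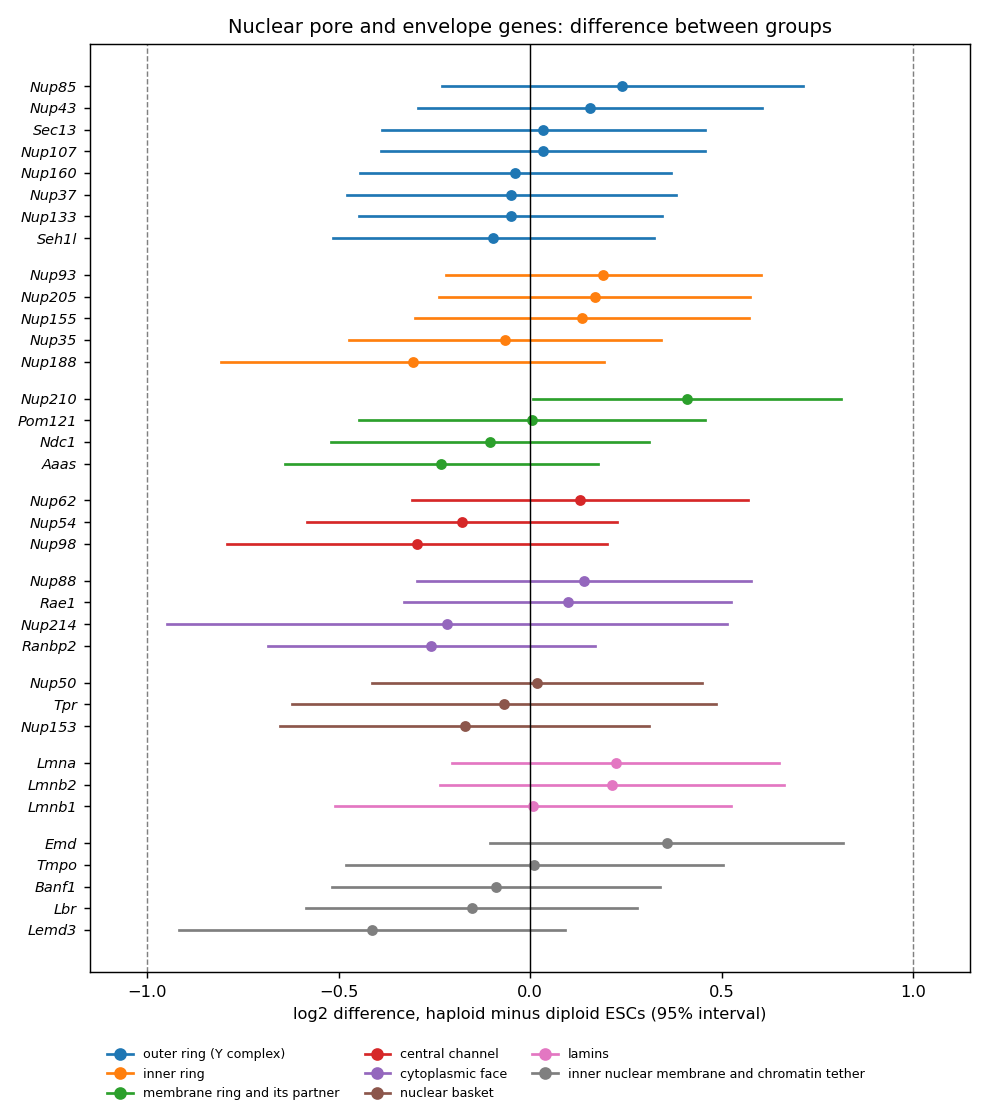
Log2 difference, haploid minus diploid, of each of the 35 genes (points) with its 95% interval from limma (bars), n = 2 arrays per group, grouped and coloured by place in the pore or envelope. Dashed lines mark a 2-fold difference, and all 35 intervals lie between them.

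The group differences were set beside the gaps between lines of a group. These are unlike measures, since a group difference is between means of 2 arrays and a gap is between single arrays. The median size of the group difference was 0.14, while the median gap between line 1 and line 2 was 0.17 among haploid arrays and 0.15 among diploid arrays. Over all features these medians were 0.20 for the group difference and 0.19 and 0.21 for the gaps. In 9 of the 35 genes (Nup133, Nup93, Nup205, Nup210, Aaas, Nup54, Ranbp2, Lmna and Emd) the group difference exceeded both gaps, where 30.0% of all features did so. Both haploid arrays lay above both diploid arrays in 6 genes, where 26.0% of all features did, and below them in 6 genes, where 20.9% did. Lbr was among the latter by a very small margin, with 3.172 on haploid replicate 1 against 3.173 on diploid replicate 1.

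The 3 genes with the largest moderated t were Nup210, Lemd3 and Emd. Their upstream sequence is shown so that they can be read beside the values that follow. Each line gives the 250 bases before the annotated start, 5′ to 3′ on the gene's strand (RefSeq, GRCm38.p6), with capitals for the motifs searched on both strands. The motifs were the CCAAT box (CCAAT), the cell cycle homology region (TTTGAA), an E2F site (TTTGGCGC or TTTCCCGC), the GC box (GGGCGG) and the palindromic consensus of an NRF1 site.
Nup210, chr6:91116827-91117076, minus strand: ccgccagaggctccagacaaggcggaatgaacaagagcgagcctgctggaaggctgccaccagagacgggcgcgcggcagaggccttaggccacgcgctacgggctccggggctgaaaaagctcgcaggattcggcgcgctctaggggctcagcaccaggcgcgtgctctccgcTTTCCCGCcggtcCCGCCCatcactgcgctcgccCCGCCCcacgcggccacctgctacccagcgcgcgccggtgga
Emd, chrX:74254437-74254686, plus strand: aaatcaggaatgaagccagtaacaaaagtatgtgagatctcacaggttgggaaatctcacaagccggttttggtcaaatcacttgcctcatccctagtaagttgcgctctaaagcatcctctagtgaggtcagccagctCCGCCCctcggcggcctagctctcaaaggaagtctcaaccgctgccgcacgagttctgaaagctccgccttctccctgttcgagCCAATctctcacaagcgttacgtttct
Lemd3, chr10:120979331-120979580, minus strand: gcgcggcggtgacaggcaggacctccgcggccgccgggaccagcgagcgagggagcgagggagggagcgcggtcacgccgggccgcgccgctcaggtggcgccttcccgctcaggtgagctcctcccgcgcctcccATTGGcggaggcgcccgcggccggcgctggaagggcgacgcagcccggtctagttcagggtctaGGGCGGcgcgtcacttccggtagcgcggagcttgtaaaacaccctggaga

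The Nup210 window held 1 E2F site and 2 GC boxes, and the windows of Emd and Lemd3 each held 1 CCAAT box and 1 GC box. The windows differed in CpG count, with 30 in Nup210, 12 in Emd and 36 in Lemd3. Of the 35 genes 30 matched the promoter table, and their windows were set beside those of 17492 protein-coding genes. A CCAAT box was present in 14 of 30 (36.3% of coding genes), the cell cycle homology region in 7 (15.0%), an E2F site in 2 (1.74%), a GC box in 21 (42.7%) and an NRF1 site in 3 (1.06%). The 2 genes with an E2F site were Nup210 and Banf1, and the 3 with an NRF1 site were Nup107, Nup50 and Nup62. Their median CpG count was 21, beside 10 for coding genes. These matches describe letters in a window and are not evidence of binding.

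Among the membrane nucleoporins, Nup210 had the smallest p of the 35 genes. It encodes a large pore membrane glycoprotein that in the mouse is known to be induced during muscle and neural differentiation. Its level was 3.43 and 3.49 on the haploid arrays, against 3.01 and 3.09 on the diploid arrays. The groups did not overlap and each was tight. The difference was 0.41 ± 0.17 (moderated SE, n = 2 per group), a 1.33-fold higher signal in haploid cells. It did not pass the test (limma adjusted p = 0.421). A dimmer Nup210 probe, in which the groups overlapped, differed by 0.10, and the mean of both probes by 0.26.

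The other genes of the membrane ring showed smaller differences. Pom121, a membrane nucleoporin that helps to build new pores, was at 3.08 and 2.78 on the haploid arrays, against 2.89 and 2.96 on the diploid arrays. Its haploid values lay on either side of the diploid ones, and the difference was 0.0049 ± 0.19. Aaas encodes aladin, which the membrane nucleoporin Ndc1 holds at the pore. It was at 2.40 and 2.32 on the haploid arrays, against 2.53 and 2.65 on the diploid arrays. Both haploid arrays were lower, and the difference of -0.23 ± 0.17 did not pass (adjusted p = 0.606). Ndc1 itself differed by -0.10 ± 0.17.

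In the outer ring 4 genes lay above and 4 below 0, with a median of -0.0025. Nup107, Nup133, Nup160, Nup85, Nup37, Nup43, Seh1l and Sec13 form the Y-shaped unit of this ring, part of which goes to kinetochores in mitosis. Their differences ran from -0.10 (Seh1l) to 0.24 (Nup85), with standard errors from 0.16 to 0.19. Nup133 shows how small some of these were. It was at 4.20 and 4.19 on the haploid arrays, against 4.26 and 4.23 on the diploid arrays, so that both haploid arrays were lower by a difference of -0.05 ± 0.16, which was 0.0063 with the array median as scale. Nup85 was at 4.68 and 4.67 on the haploid arrays, against 4.62 and 4.25 on the diploid arrays, with a difference of 0.05 when diploid replicate 2 was left out. With quantile normalization Nup107 and Sec13 also lay below 0, at -0.11 and -0.02.

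In the inner ring, which joins the outer rings to the membrane and to the central channel, 3 of 5 genes lay above 0 and the median was 0.14. Nup93, Nup205 and Nup155 differed by 0.19 ± 0.17, 0.17 ± 0.17 and 0.14 ± 0.18, and Nup35 by -0.06 ± 0.17. Nup188, a large scaffold protein that binds Nup93, was lower by its brightest probe. It was at -0.33 and -0.0088 on the haploid arrays, against -0.016 and 0.29 on the diploid arrays. The groups overlapped and the difference was -0.31 ± 0.21 (limma adjusted p = 0.581). It was -0.15 without haploid replicate 1 or diploid replicate 2, and -0.47 and -0.46 without haploid replicate 2 and diploid replicate 1. Its other probes differed by 0.26 and 0.23, so the sign for Nup188 depended on the probe.

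Nucleoporins of the central channel and of the cytoplasmic face went both ways. Nup98, a repeat nucleoporin whose phosphorylation is an early step in taking the pore apart, was at -0.25 and -0.62 on the haploid arrays, against -0.26 and -0.025 on the diploid arrays. Haploid replicate 2 was low and haploid replicate 1 was level with diploid replicate 1. The difference was -0.30 ± 0.20 (adjusted p = 0.590), and it was -0.11 when haploid replicate 2 was left out, -0.18 when diploid replicate 2 was, and -0.48 when haploid replicate 1 was. Nup62, the best-known channel protein, differed by 0.13 ± 0.18, and its partner Nup54 by -0.18 ± 0.17, with its other probe at -0.47.

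On the cytoplasmic face, Ranbp2 encodes a giant protein of the pore filaments that binds Ran and attaches SUMO. It was at 0.92 and 0.69 on the haploid arrays, against 1.04 and 1.09 on the diploid arrays. Both haploid arrays were lower, and the difference of -0.26 ± 0.18 did not pass (adjusted p = 0.585) and was -0.14 without haploid replicate 2. Nup88 and the messenger RNA export factor Rae1 differed by 0.14 ± 0.18 and 0.10 ± 0.18. Nup214, the Nup88 partner, had the widest spread of all 35 genes, at -4.06 and -3.42 on the haploid arrays against -3.21 and -3.84 on the diploid arrays. Its lines differed more within a group than the groups did, and its difference was -0.22 ± 0.30. In the nuclear basket, where transcripts dock before export, Nup50, Tpr and Nup153 differed by 0.02 ± 0.18, -0.07 ± 0.23 and -0.17 ± 0.20.

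The 3 lamin genes all had differences above 0, though none passed the test (limma adjusted p from 0.625 to 0.990) and Lmnb1 lay below 0 with quantile normalization, cyclic loess and the value table, at -0.08 in each. Lmna encodes the A-type lamins, which are less abundant in ESCs than in fibroblasts and other differentiated cells. It was at 2.18 and 2.35 on the haploid arrays, against 2.12 and 1.96 on the diploid arrays. Its probe was not dim, at brightness percentile 74.5 among all features. The groups did not overlap, and the difference was 0.22 ± 0.18. It was 0.14 without haploid replicate 2 and 0.15 without diploid replicate 2. Of 14 measured fibroblast markers 11 lay above 0, with a median difference of 0.76 for the 14. Col3a1 (-0.39), Dcn (-0.38) and Lum (-0.29) lay below 0. The part of fibroblasts in the Lmna value was not tested.

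The B-type lamins are made in all cells and stay attached to membranes in mitosis. Lmnb1 was at 3.58 and 3.10 on the haploid arrays, against 3.36 and 3.30 on the diploid arrays. The haploid lines lay on either side of the diploid ones, and the difference was 0.0087 ± 0.21. Lmnb2 was at 1.79 and 1.997 on the haploid arrays, against 1.79 and 1.57 on the diploid arrays. Haploid replicate 1 and diploid replicate 1 were level, and the difference was 0.21 ± 0.19, or 0.11 without haploid replicate 2 and 0.10 without diploid replicate 2. Lbr, the lamin B receptor and also a sterol reductase, was at 3.17 and 2.93 on the haploid arrays, against 3.17 and 3.24 on the diploid arrays. Haploid replicate 2 was the lowest array, and the difference of -0.15 ± 0.18 was -0.03 without it and -0.27 without haploid replicate 1. A second Lbr probe differed by -0.11.

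**Figure D2:**
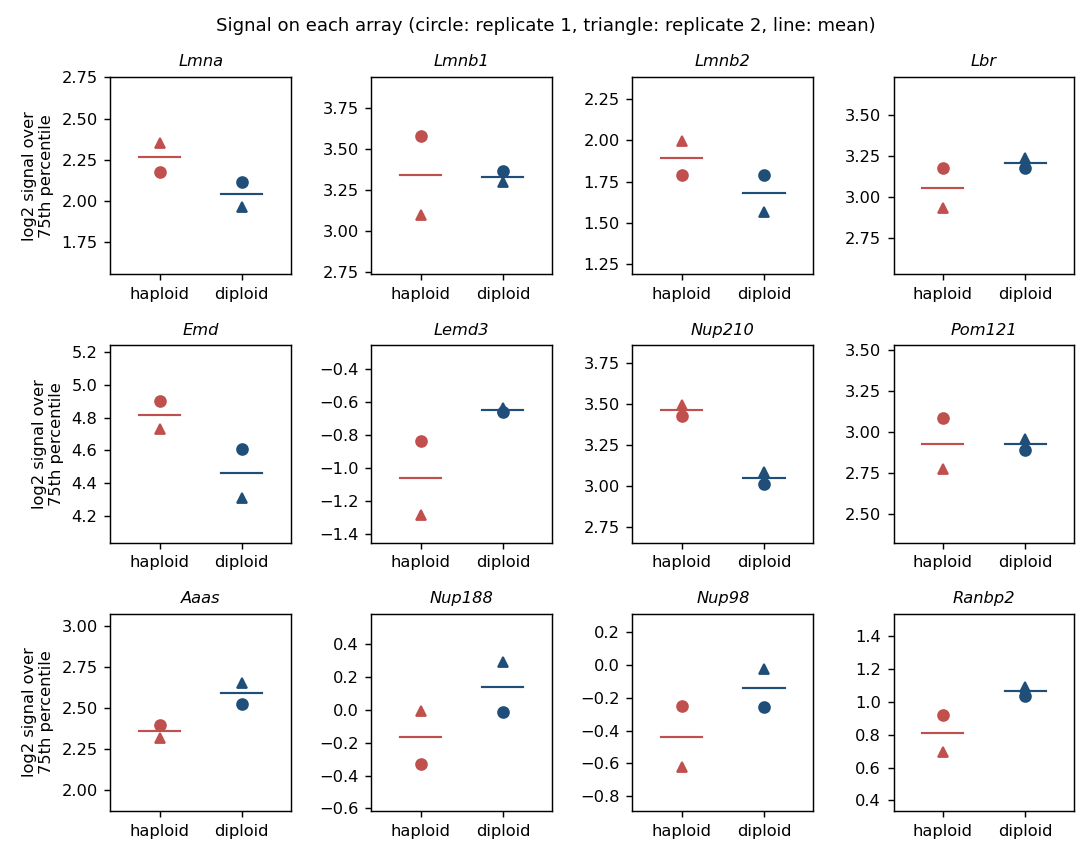
Log2 signal over the array's 75th percentile on each array for 12 genes, haploid left and diploid right in each panel, with circles for replicate 1, triangles for replicate 2 and lines for the mean of 2 arrays. Every panel spans the same range on the vertical axis. Nup210 has 2 tight groups that do not overlap, while in Lmnb1 and Pom121 the haploid arrays lie on either side of the diploid ones.

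The LEM-domain genes Emd and Lemd3 had differences of opposite sign, each with a 95% interval that included 0. Emd encodes emerin, a LEM-domain protein of the inner membrane, and is the X-linked gene among the 35. It was at 4.90 and 4.73 on the haploid arrays, against 4.61 and 4.31 on the diploid arrays. The groups did not overlap, and the difference was 0.36 ± 0.19, 1.28-fold higher in haploid cells without passing the test (limma adjusted p = 0.513). Its other probe differed by 0.29, and the difference was 0.21 without diploid replicate 2. For scale, the 498 X-linked features had a median difference of 0.11 and the 12540 autosomal ones a median of 0.01.

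Lemd3 encodes MAN1, a LEM-domain protein that also restrains SMAD signalling. It was at -0.83 and -1.29 on the haploid arrays, against -0.66 and -0.64 on the diploid arrays. Both haploid arrays were lower, but they were also 0.45 apart from each other. The difference was -0.41 ± 0.21 (limma adjusted p = 0.498), the lowest of the 35, and -0.19 without haploid replicate 2 and -0.64 without haploid replicate 1. Its second probe was well above background on diploid replicate 2 only. Tmpo, which encodes the LAP2 proteins, differed by 0.01 ± 0.20 by its brightest probe, while its other 3 probes differed by 0.07, -0.24 and -0.48. Banf1, the gene for BAF, differed by -0.09 ± 0.18.

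Repeat probes gave a check on these small values. Of the 35 genes 24 had 1 probe and 11 had several, and 9 had more than 1 probe past the filter on dim probes. In 3 of these 9 (Nup188, Nup35 and Tmpo) the probes differed in sign. The other 6 (Emd, Lbr, Nup210, Nup54, Seh1l and Tpr) kept 1 sign in all their probes.

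The differences also followed how bright a probe was. Of the 18 genes whose probes were among the brightest 20% of all features, 12 lay above 0, with a median of 0.07, where all 3593 such features had a median of 0.15 and 80.1% lay above 0. Of the other 17 genes, 6 lay above 0 and the median was -0.10, beside -0.03 for the remaining 14369 features. The correlation of difference with mean log2 signal was 0.58 (Pearson) and 0.57 (Spearman) across the 35 genes, and 0.19 and 0.26 across all features. These points share the same 4 arrays and are a description only. Scaling that removes a trend with brightness moved the list: with cyclic loess 11 genes lay above 0 and 24 below, with a median of -0.07 beside 0.0033 for all features. Quantile normalization gave the same split of 11 and 24, with a median of -0.08 beside -0.02. The directions of Nup210, Emd, Lmna, Lmnb2, Lemd3, Aaas, Nup98, Ranbp2, Nup188 and Lbr were the same under both.

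**Figure D3:**
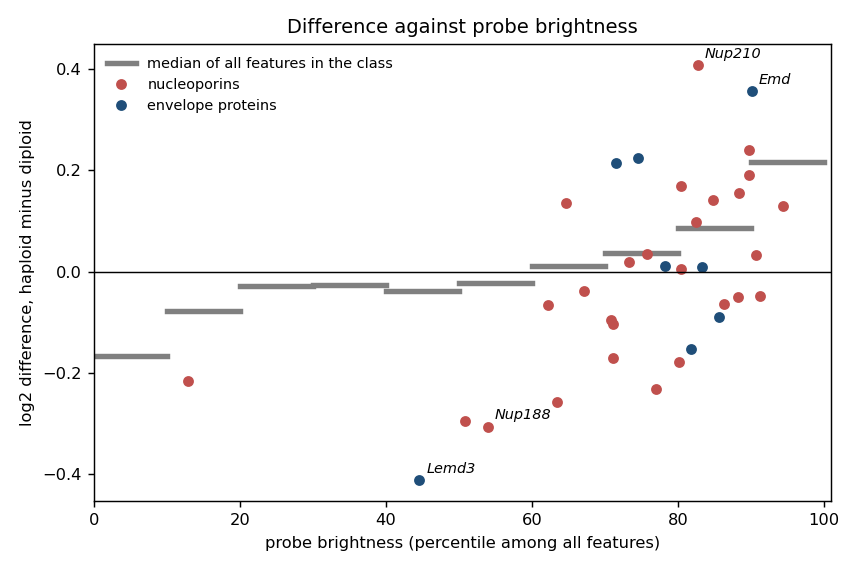
Log2 difference, haploid minus diploid, of each of the 35 genes against the brightness of its probe, given as a percentile among 17962 features (red, nucleoporins; blue, envelope proteins). Grey bars are the median difference of all features in each of 10 brightness classes, which run from -0.17 in the dimmest to 0.22 in the brightest.

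Genes that work with the pore and envelope were read from the same fit. Of 95 such genes in 5 lists, 90 passed the filter, 45 lay above and 45 below 0, the median was 0.00060, and none passed the test. Among 32 transport receptors and Ran regulators 17 lay above 0 and the median was 0.0082. Kpna2, an importin alpha that is abundant in ESCs and also binds spindle factors, was at 5.81 on both haploid arrays, against 5.36 and 5.12 on the diploid arrays. The groups did not overlap, and the difference was 0.57 ± 0.18 without passing (limma adjusted p = 0.304). All 4 Kpna2 probes gave the same sign, from 0.44 to 0.62. Another importin alpha gene, Kpna1, was at 0.24 and 0.024 on the haploid arrays, against 0.57 and 0.54 on the diploid arrays. It differed by -0.42 ± 0.17, Kpna3 by -0.30 ± 0.16, and Ran, the GTPase that gives transport its direction, by 0.34 ± 0.20. A dimmer Ran probe differed by -0.0037.

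The remaining lists held no gene with an unadjusted p under 0.05. For 7 other pore and messenger RNA exit factors the median was -0.11, and the genes with the smallest p were Nup58 at -0.25 ± 0.18, Nup62cl at 0.29 ± 0.29, Nup42 at -0.23 ± 0.22 and Ahctf1, which starts pore assembly on chromatin, at -0.15 ± 0.17. For 19 other envelope and lamin processing genes the median was 0.04. There the farnesyltransferase subunit genes Fntb and Fnta, whose enzyme attaches the lipid that lamins need, differed by 0.32 ± 0.17 and 0.26 ± 0.19, Sun2 by 0.30 ± 0.19 and Tor1aip2 by -0.24 ± 0.18.

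For 14 ESCRT-III genes, whose products seal the new envelope, the median was -0.05, with Chmp2b at -0.32 ± 0.17, Chmp2a at 0.27 ± 0.23, Chmp4b at 0.21 ± 0.18 and Chmp3 at 0.19 ± 0.17. A dimmer Chmp3 probe had the opposite sign, at -0.77, and the other Chmp4b probes differed by 0.24 and 0.08. For 18 enzymes of envelope disassembly and reassembly it was also -0.05. The kinase gene Nek6, whose product phosphorylates Nup98, differed by 0.47 ± 0.22, with its other probe at 0.08. Ccnb1 differed by 0.37 ± 0.17 by its brightest probe, but its other probes differed by -0.19 and -0.13. Vrk2 differed by 0.34 ± 0.17 and Nek2 by -0.33 ± 0.19. Of the main mitotic kinases, Cdk1 differed by 0.21 ± 0.18 and Plk1 by -0.22 ± 0.17.

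**Figure D4:**
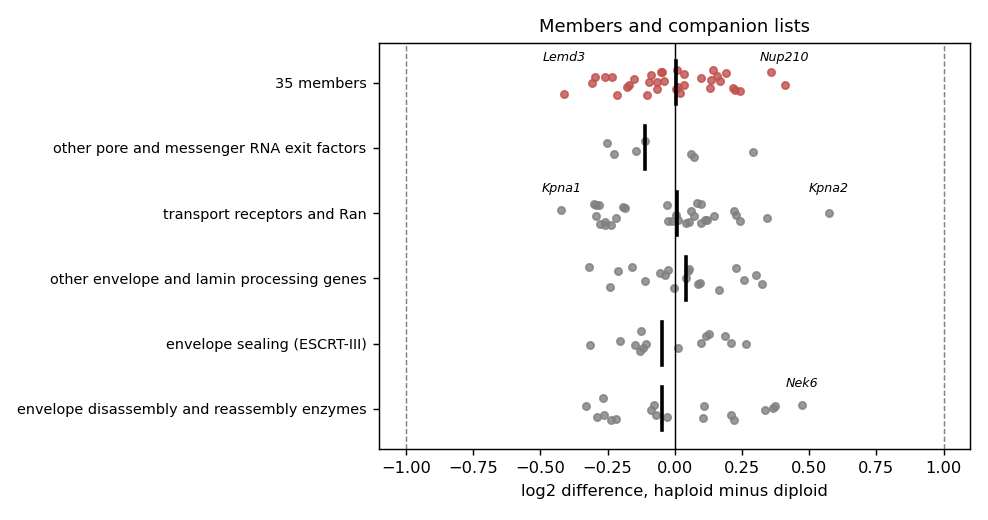
Log2 difference, haploid minus diploid, of the 35 pore and envelope genes (red) and of the 90 measured genes in 5 lists of related genes (grey), 1 point per gene, with black bars for each list's median and dashed lines at a 2-fold difference. All points lie inside 2-fold, and Kpna2 at 0.57 lies farthest from 0.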

How the data were processed

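RNA of 2 haploid and 2 diploid parthenogenetic ESC lines was labelled with Cy3 and hybridised to 1-colour Agilent arrays that shared 1 slide and 1 scan. Scanner output deposited by the authors gives intensity on a linear scale, from Agilent Feature Extraction 11.0.1.1 per the file headers. Their value table was deposited as linear intensity too, with column medians of 28.4 and 28.3 for the haploid samples and 28.4 and 28.3 for the diploid samples. Its normalization is not stated in the labels, and it was used as an alternative.

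Processed signals were divided by the 75th percentile of their array and put on a log2 scale, after removal of control spots and of the 121 to 168 of 43020 spots per array with an outlier mark. No spot was saturated. Of 39409 probes, 66.1% were named by matching accessions to a RefSeq table (GRCm38.p6). The array design names mm9, and no coordinate was converted. Probes were kept if both arrays of either group had them well above background. The test was limma 3.58.1 in R 4.3.3 (lmFit and eBayes, two-sided, no block), with tables made in Python 3.11.15. It was first tested on simulated data. The number of arrays limits the precision. Samples of a group are separate lines per the labels and independent experiments per the design text. Replication is therefore between 2 lines, with 1 array each. Every SE (given after ±), interval and p-value is moderated, as limma draws a gene's own spread towards that of all features. For Nup133 the standard deviations were 0.0069 (haploid) and 0.015 (diploid), while the moderated SE was 0.16.

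Values on every array are given for Lmna, Lmnb1, Lmnb2 and Lbr, the 8 genes with the largest absolute moderated t and the 2 with the smallest absolute difference. Array values of Nup133, Nup85, Nup214, Kpna2 and Kpna1 were added after they were seen, as were the values of Cdk1 and Plk1. Of each related list the 4 genes with the smallest p are named. The 35 genes and the lists were chosen with earlier results of these data known.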

Additional observations from a re-analysis of the deposited data

How the results depend on the processing

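No pore or envelope gene passed the test in the main analysis or in any of 16 alternatives. Over all features the count of calls was 20 in the main analysis, 7 with quantile normalization, 0 with cyclic loess (2287 with an unadjusted p under 0.05), 83 with the array median as scale, 4 with the authors' value table, 0 without a filter on dim probes (1660 unadjusted), 82 with probes well above background on all 4 arrays, 425 with a trended robust prior and 2 with the replicate number as a block. With 1 array left out it ran from 0 to 293: 226 without haploid replicate 1, 293 without haploid replicate 2, and 0 without diploid replicate 1 (2344 features with an unadjusted p under 0.05) or diploid replicate 2 (1201). The median of the 35 genes was -0.081 with quantile normalization, -0.073 with cyclic loess and -0.081 with the value table, and -0.017 to 0.040 with 1 array left out. The count of intervals inside 2-fold fell from 35 to 34 with the replicate block, to 33 without the filter and to 30 to 33 with 1 array left out. It stayed at 35 in the other alternatives, apart from normexp on all spots, given below. Normexp was run on median signals in place of the planned mean signals, a choice made after seeing the data. On all spots it gave 0 calls (120 features with an unadjusted p under 0.05), moved the median of all features to -0.10 and of the 35 genes to 0.35, and left 0 intervals inside 2-fold. Aaas turned to 0.15 and Lbr to 0.22. Without 2 spots of high local background on diploid replicate 2, added for this reason, it gave 68 calls and again 35 intervals inside 2-fold.

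Among the 12 genes with array values under the naming rule, 177 of 192 repeated values kept their sign. The other 15 were mostly the near-zero values of Lmnb1 and Pom121. The count overstates stability, since alternatives that changed only the filter, the prior or the block left these 12 differences as they were. The mean of all probes likewise left genes with 1 probe unchanged. Lmnb1 turned to -0.081 (quantile), -0.080 (cyclic loess), -0.084 (value table) and -0.027 (normexp without the high-background spots), and Pom121 to -0.071, -0.069, -0.061 and -0.0020. With 1 array left out Lmnb1 ran from -0.23 to 0.25 and Pom121 from -0.15 to 0.16. Nup188 turned to 0.063 with the mean of its probes. The cause of these turns was not tested. The gap between lines 1 and 2 correlated at only 0.048 between groups across features. That value cannot show whether lines of the same number share an origin. With the replicate block, as without it, none of the 35 genes passed the test.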
